A study of Mus musculus with 11 samples.

Results

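The genes described here are 10 members of the leukaemia inhibitory factor (LIF) and JAK/STAT pathway, in cells whose culture medium contains LIF. They were taken by name as 1 ligand (Lif), 3 receptor chains (Lifr, Il6st, Osmr), 2 kinases (Jak1, Jak2), 1 transcription factor (Stat3), 2 feedback inhibitors (Socs3, Socs2) and 1 target gene (Pim1). They are 10 of the 48952 genes of a bulk RNA-seq table and 10 of the 32285 genes of a pair of single-cell libraries. All 10 were in both tables, and all 10 were among the 14185 genes that passed the filter on low counts in bulk.

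All samples are mouse naive extra-embryonic endoderm (nEnd), stem cells that stand for the primitive endoderm (PrE), the extra-embryonic layer next to the epiblast (Epi) in the blastocyst. They grow on feeder fibroblasts in RACL, a medium with Activin A, the GSK3 inhibitor CHIR99021 and LIF. For bulk RNA-seq, 1 OCT4-mCherry reporter line of nEnd was stained for PDGFRA, a surface receptor of PrE, and sorted without any treatment into cells with PDGFRA only (Pdgfra+), double-positive cells (DP) and cells with only the reporter (Oct4+), giving 3 libraries per population. For single-cell RNA-seq, 1 line with inducible Oct4 loss of function (Oct4LOF nEnd) was sorted for PDGFRA and then cultured without (−4OHT) or with (+4OHT) 4-hydroxytamoxifen, which induces deletion of Oct4 (gene symbol Pou5f1), giving 1 library per condition. The 4OHT was present only in the first part of this culture, and normal RACL medium followed until the cells were taken. The study calls the bulk libraries of a group biological replicates, but the sources used here do not say whether they came from separate cultures, so that p-values measure only the spread between these libraries, which may be technical.

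In this pathway LIF binds the LIF receptor chain (Lifr), which pairs with gp130 (Il6st), the chain shared by the receptors of the IL-6 family, while the oncostatin M receptor chain (Osmr) pairs with the same gp130. The kinases JAK1 and JAK2, bound to these chains, phosphorylate STAT3, which enters the nucleus and activates target genes. Among these are Socs3, whose product binds gp130 and the JAKs and limits the signal, and Pim1, a serine/threonine kinase, while SOCS2 is a related inhibitor best known for limiting growth hormone signalling. LIF is the cytokine that keeps mouse embryonic stem cells self-renewing, and it also acts on PrE.

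STAT3 and related factors bind the palindrome TTCNNNGAA, which reads the same on both strands. It was searched in the RefSeq promoter windows of build GRCm38.p6, which hold 250 bases before and 50 after each gene start. Windows were found for 9 of the 10 members (11 windows). A match lay in 1 of these 11 windows (9.09%), against 8.30% of all 32851 windows, and in 7 of 55 windows (12.7%) of a list of other pathway genes, of which 39 genes had a window. The member with a match was Socs3, shown because it had the largest ratio of the 10 members between endoderm-like cells of the single-cell conditions, and the Irf1 match is shown beside it as an example from the 5 listed genes with a match. Irf1 is a listed target, an interferon-responsive transcription factor. The Socs3 sequence is from the minus strand of chr11:117969502-117969530 and its match begins 154 bases before the RefSeq start, inside the gene span of the GENCODE annotation but in no exon, while the Irf1 sequence is from the plus strand of chr11:53769914-53769942, 90 bases before the start and outside the annotated gene. Capitals mark the match.
Socs3: gaaaccagccTTCTTAGAAgggagggggg
Irf1: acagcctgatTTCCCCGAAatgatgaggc
Such a match is a description of the letters and does not show that a factor binds there.

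The bulk libraries held 8019631 to 11642571 reads, and libraries of 1 group differed beyond sampling noise in every pair. The sort was reflected in the checked genes: Pou5f1 averaged 17.5 CPM (read counts scaled to a common library size) in Pdgfra+, 229 in DP and 981 in Oct4+, and Pdgfra averaged 729, 590 and 7.43 CPM. Summed levels of 15 endoderm markers ran from 62000 to 80680 CPM in Pdgfra+, from 43580 to 66920 in DP and from 453 to 997 in Oct4+, while 12 Epi markers summed to 140 to 241, 645 to 983 and 3822 to 5467. Sums of 12 feeder fibroblast markers lay between 12.3 and 57.9 CPM in Pdgfra+, 11.5 and 12.5 in DP and 25.4 and 176 in Oct4+, the highest being Oct4+ replicate 1, and 9 markers of 2-cell-like cells reached 395 to 1476 CPM in Oct4+ against at most 23.3 elsewhere. The 10 listed trophectoderm markers summed to 23.4 to 89.0 CPM over all groups.

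The levels of the members were first ordered within each population. On the scale of mean CPM per kilobase of exon, Socs3 was the highest of the 10 in every population, at 45.1 ± 11.9 in Pdgfra+, 27.3 ± 10.2 in DP and 36.3 ± 15.5 in Oct4+ (SD, n = 3). In Pdgfra+ it was followed by Lif (20.6 ± 6.35), Stat3 (19.1 ± 1.20) and Lifr (14.6 ± 3.87), whose mean ± SD ranges overlapped, and then by Jak1, Il6st and Jak2 at 10.1, 9.98 and 7.16. Pim1, Osmr and Socs2 stood at the low end in Pdgfra+, at 1.52, 0.751 and 0.270 CPM per kilobase. In DP the order differed mainly at Lif, which stood sixth at 9.10, and at Lifr, which stood second at 22.3 ± 3.71 and overlapped Socs3 in its mean ± SD range. In Oct4+ Pim1 stood second at 20.1 ± 7.54, overlapping Socs3, while Lif was ninth at 2.10 and Osmr last at 0.0215. Stat3, Lifr, Jak1 and Il6st lay close to each other in Oct4+, at 11.2, 8.56, 7.99 and 7.81.

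**Figure D1:**
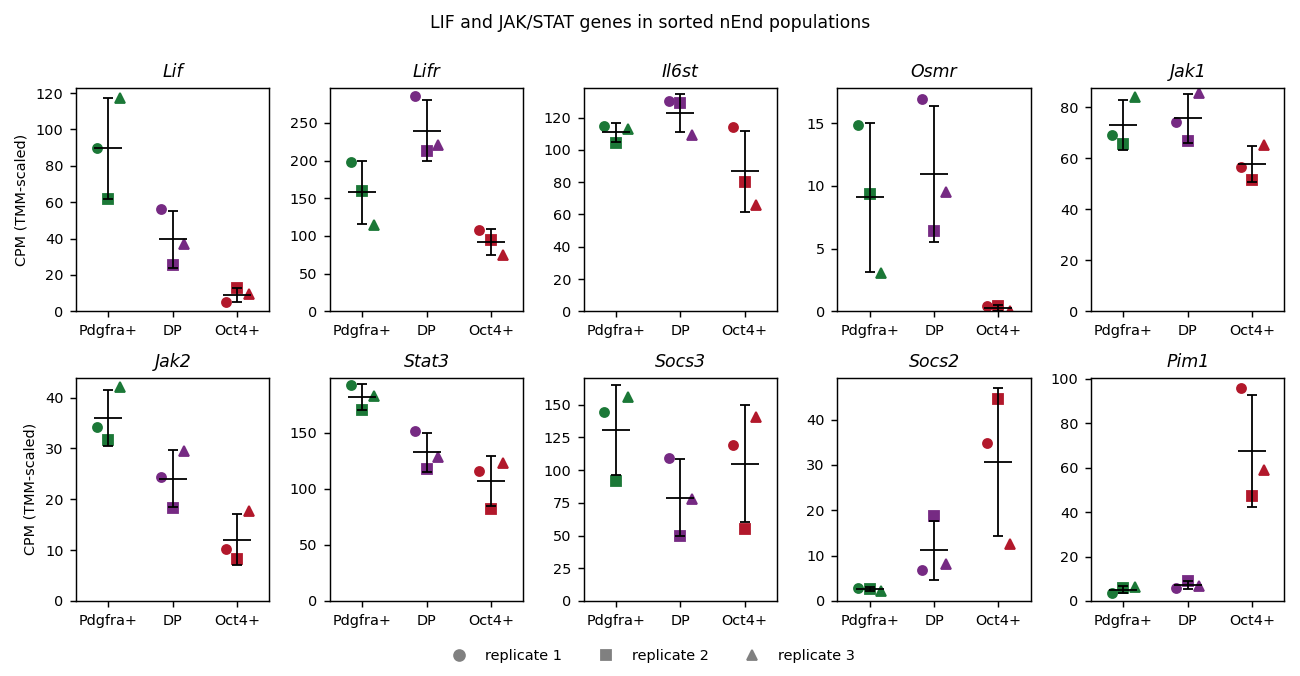
Level of each of the 10 members in CPM (vertical axis, 1 panel per gene, each with its own scale from 0) in the 9 bulk libraries of Pdgfra+, DP and Oct4+ nEnd. Points are libraries with the marker shape giving the replicate number, and bars are mean ± SD (n = 3). Lif falls from 89.6 through 39.6 to 9.13 CPM on average, whereas Socs2 and Pim1 are highest in Oct4+ at 30.6 and 67.5 CPM, and replicate 2 is the lowest Socs3 library in each group.

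To describe the pathway at the ends of the sort, Oct4+ was compared with Pdgfra+. The ligand, the receptor chains Lifr and Osmr, Jak2 and Stat3 were lower in Oct4+, while the inhibitor Socs2 and the target Pim1 were higher. By edgeR's quasi-likelihood test, 7 of the 10 members passed an adjusted p of 0.05, 2 of them higher (Socs2, Pim1) and 5 lower (Lif, Lifr, Osmr, Jak2, Stat3). Over all genes tested, 63.2% passed in this comparison, 31.8% higher and 31.5% lower. Past an absolute log2 fold change of 1.5 as well were 2 members higher and 3 lower, where 32% of all genes tested were. Libraries did not overlap for 8 members, as was the case for 69.3% of all genes tested. The median log2 fold change of the members was −0.56, against 0.01 for all genes tested. In such sorted populations, fewer cells of a type and less RNA per cell cannot be told apart.

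Lif, the ligand that the medium also supplies, was measured at 89.7, 61.9 and 117 CPM in Pdgfra+ replicates 1 to 3 and at 5.04, 12.7 and 9.64 CPM in Oct4+. The groups did not overlap, and Lif was 9.86-fold lower in Oct4+ (log2 fold change −3.30 ± 0.41 SE, edgeR adjusted p = 7.88e-05).

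Among the receptor chains, Osmr stood at 14.9, 9.37 and 3.03 CPM in Pdgfra+ and at 0.388, 0.394 and 0 CPM in Oct4+, where the 3 libraries held 9 Osmr reads in all. It was lower in each Oct4+ library than in any Pdgfra+ library (log2 fold change −4.98 ± 0.82, adjusted p = 0.000485, edgeR). Lifr, the chain that binds LIF, was measured at 198, 160 and 115 CPM in Pdgfra+ and at 108, 94.1 and 74.5 CPM in Oct4+. Its groups did not overlap, but the highest Oct4+ and the lowest Pdgfra+ library lay close together, and its log2 fold change was −0.77 ± 0.22 (adjusted p = 0.0105, edgeR). Without Pdgfra+ replicate 1 the call was lost (edgeR adjusted p = 0.0573). Il6st, the shared signalling chain, was at 115, 104 and 113 CPM in Pdgfra+ and at 114, 79.9 and 65.8 CPM in Oct4+, where replicate 1 lay within the Pdgfra+ range. The difference was not called (log2 fold change −0.35, adjusted p = 0.126). Oct4+ replicate 1 also had the highest feeder marker sum, and without it the log2 fold change of Il6st was −0.62 (adjusted p = 0.00596, edgeR). The part of feeder cells in this was not tested.

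Of the kinases, Jak2 averaged 36.0 ± 5.48 CPM in Pdgfra+ (31.7 to 42.2) and 12.1 ± 5.01 CPM in Oct4+ (8.28 to 17.7). The groups did not overlap and Jak2 was lower in Oct4+ (log2 fold change −1.58 ± 0.30, edgeR adjusted p = 0.00107). Jak1 was at 69.2, 65.6 and 83.9 CPM in Pdgfra+ and between 51.6 and 65.3 CPM in Oct4+, and was not called at a log2 fold change of −0.34 (adjusted p = 0.0826). Jak1 overlaps Raver2 on the opposite strand, and whether the counting used strand is not given in the sources used here, so that reads of both may be mixed.

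Stat3, the transcription factor that the kinases activate, lay between 170 and 193 CPM in Pdgfra+ and at 116, 82.0 and 123 CPM in Oct4+. No libraries overlapped, and the log2 fold change was −0.77 ± 0.17 (edgeR adjusted p = 0.00272). The end of Stat3 overlaps the end of Stat5a on the opposite strand.

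The feedback inhibitors differed from each other. Socs3, at 144, 91.4 and 156 CPM in Pdgfra+ and 119, 54.8 and 141 CPM in Oct4+, overlapped between the groups and was not called (log2 fold change −0.31, adjusted p = 0.475, edgeR). Replicate 2 was the lowest library for Socs3 in Pdgfra+, DP and Oct4+ alike. Socs2 was measured at 2.93, 2.69 and 2.09 CPM in Pdgfra+ and at 34.8, 44.5 and 12.5 CPM in Oct4+. All Oct4+ libraries were above all Pdgfra+ libraries, with Oct4+ replicate 3 well below the other two, and the log2 fold change was 3.57 ± 0.54 (edgeR adjusted p = 0.000291).

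Pim1, the target gene, stood at 3.42, 5.68 and 6.26 CPM in Pdgfra+ and at 96.0, 47.3 and 59.2 CPM in Oct4+. Its groups were far apart, at a log2 fold change of 3.71 ± 0.34 (adjusted p = 1.41e-05, edgeR). Pim1 shares its locus with the antisense gene Gm26885.

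The DP population was then compared with each of the other two. These comparisons share libraries with the one above and with each other, so that their values are set side by side only. Against Oct4+, 7 members were called by edgeR, 5 higher in DP (Lif, Lifr, Il6st, Osmr, Jak2) and 2 lower (Socs2, Pim1), where 56.2% of all genes tested were called, 28.3% higher and 27.9% lower. Past an absolute log2 fold change of 1.5 were 2 members higher and 1 lower (27.7% of all genes tested), and libraries did not overlap for 6 members (62.6% of all genes tested). The median log2 fold change of the members was 0.45, against −0.04 for all genes tested.

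Lifr was measured at 286, 213 and 221 CPM in DP, every one above the Oct4+ libraries (log2 fold change 1.38 ± 0.22, edgeR adjusted p = 0.00051). Lif stood at 56.5, 25.3 and 37.0 CPM in DP, likewise above Oct4+ (2.12 ± 0.40 on the log2 scale, adjusted p = 0.00126). Osmr was at 17.0, 6.37 and 9.54 CPM in DP and was higher than in Oct4+ by 5.25 ± 0.82 on the log2 scale (adjusted p = 0.00046, edgeR). The ligand and the chains Lifr and Osmr were thus all higher in DP than in Oct4+.

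Il6st, at 130, 129 and 109 CPM in DP, overlapped Oct4+, and its log2 fold change of 0.50 ± 0.19 (edgeR adjusted p = 0.0433) was lost without Pdgfra+ replicate 1 (0.0706), DP replicate 1 (0.0877), DP replicate 2 (0.0841), Oct4+ replicate 2 (0.113) or Oct4+ replicate 3 (0.118). Jak2, between 18.3 and 29.5 CPM in DP and not overlapping Oct4+, was higher in DP by 0.9996 ± 0.297 on the log2 scale (adjusted p = 0.0156), a call lost without DP replicate 3 (0.055) or Oct4+ replicate 1 (0.0527). Socs2 was at 6.73, 18.7 and 8.104 CPM in DP, with DP replicate 2 above Oct4+ replicate 3, and fell by 1.45 on the log2 scale relative to Oct4+ (SE 0.49, edgeR adjusted p = 0.0266). That call was lost without DP replicate 1 (0.0976), DP replicate 3 (0.0954), Oct4+ replicate 1 (0.0728) or Oct4+ replicate 2 (0.102).

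Pim1 stood at 5.74, 9.21 and 6.80 CPM in DP, far under every Oct4+ library (log2 fold change −3.22 ± 0.33, edgeR adjusted p = 3.79e-05). Jak1, Stat3 and Socs3 were not called between DP and Oct4+, at log2 fold changes of 0.39 (adjusted p = 0.0558), 0.31 (0.144) and −0.41 (0.364).

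Between DP and Pdgfra+, the populations that both carry PDGFRA, the members differed less. The fit to all 9 libraries called 1 member, Socs2, where 6.87% of all genes tested were called, 4.62% higher and 2.26% lower. This member was also past an absolute log2 fold change of 1.5, as were 3.89% of all genes tested. Socs2 was higher in each DP library than in any Pdgfra+ library (log2 fold change 2.12 ± 0.53, edgeR adjusted p = 0.0444). The call was lost without Pdgfra+ replicate 1 (0.0979), Pdgfra+ replicate 2 (0.107), Pdgfra+ replicate 3 (0.155), DP replicate 2 (0.157), DP replicate 3 (0.085) or Oct4+ replicate 1 (0.0598). Libraries did not overlap for 5 members (Lif, Lifr, Jak2, Stat3 and Socs2), as was the case for 34.2% of all genes tested.

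Same-numbered DP and Pdgfra+ libraries deviated together, and a paired fit to these 6 libraries called 6 members, 2 higher and 4 lower in DP, where 20.2% of 12541 genes were called, 10.4% higher and 9.86% lower. All 6 lay on the same side in 3 of 3 pairs, which a call from 3 pairs largely implies. Jak1 and Pim1, which were not called, did so too, and the share over all genes was not taken. With the pairing, Lif was lower in DP at a log2 fold change of −1.19 (edgeR adjusted p = 0.0198), against −1.18 and an adjusted p of 0.0843 without it. Lifr was higher at 0.64 (0.0236), against 0.60 (0.120) without the pairing. Jak2 was lower at −0.58 (0.0306), against −0.58 (0.241), and Stat3 was lower at −0.45 (0.0255), against −0.46 (0.127).

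Socs3, whose DP libraries stood at 109, 49.9 and 77.8 CPM, was lower in DP in each of the 3 pairs, at log2 differences of −0.404, −0.869 and −0.9998. It was called in the paired fit (log2 fold change −0.74, edgeR adjusted p = 0.0222) and not without the pairing (−0.73, 0.251). Socs2 was called in both fits (2.03, adjusted p = 0.0209, with the pairing). Il6st, Osmr, Jak1 and Pim1 were called in neither, at paired log2 fold changes of 0.16, 0.38, 0.07 and 0.53.

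**Figure D2:**
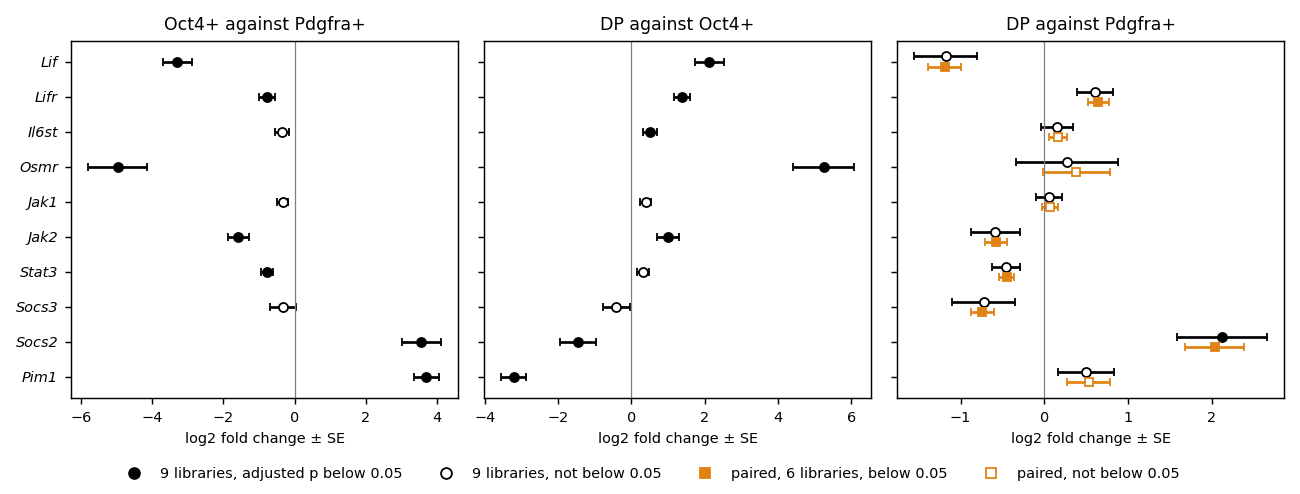
Log2 fold change ± SE of each member (vertical axis) in DP against Pdgfra+, DP against Oct4+ and Oct4+ against Pdgfra+, 1 panel per comparison. Filled points passed an edgeR adjusted p of 0.05 over all genes, and orange squares in the DP against Pdgfra+ panel give the paired fit to 6 libraries. Pim1 lies at −3.22 in DP against Oct4+ and 3.71 in Oct4+ against Pdgfra+ but at 0.49 in DP against Pdgfra+, while Socs2 is called in all 3 panels.

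Beyond the members, a list of 53 other genes of the pathway was read from the same fit, and 46 of them passed the filter (2 of 7 ligands, 4 of 6 receptors, 2 of 2 kinases, 6 of 6 STATs, 14 of 14 inhibitors and 18 of 18 targets). In Oct4+ against Pdgfra+, edgeR called 28 of the 46, 17 higher and 11 lower, where 63.2% of all genes tested were called. Targets of LIF and STAT3 made up 11 of the higher and 3 of the lower genes out of 18, with a median log2 fold change of 1.61. The STATs other than Stat3 held 1 higher and 3 lower gene of 6, the receptors 2 higher and 1 lower of 4, and the inhibitors 3 higher and 4 lower of 14. The median over all 46 was 0.02, against 0.01 for all genes tested.

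The listed genes with the largest changes were led by Stat4, a STAT best known from interleukin-12 signalling in lymphocytes, which had 118 reads over the 3 Oct4+ libraries and 0 in Pdgfra+ and DP. It was at least 34.1-fold higher in Oct4+ than in Pdgfra+ and at least 29.6-fold lower in DP than in Oct4+, taking 3 reads over the group as the floor. Gbx2, a homeobox gene and STAT3 target in embryonic stem cells, averaged 0.352 CPM in Pdgfra+, 1.88 in DP and 42.7 in Oct4+ (log2 fold change of Oct4+ over Pdgfra+ 6.85, adjusted p = 1.19e-05, and of DP over Oct4+ −4.49, adjusted p = 6.31e-05, edgeR). Il6ra, the IL-6 binding chain that works with gp130, averaged 0.512, 1.99 and 18.3 CPM. It was called higher both in Oct4+ (5.14, adjusted p = 1.48e-05) and in DP (1.95, adjusted p = 0.0453, edgeR) than in Pdgfra+. Cntfr, the ciliary neurotrophic factor receptor, averaged 0.941, 1.09 and 19.6 CPM and was lower in DP than in Oct4+ (−4.14, adjusted p = 0.000609). The only listed gene lower in Oct4+ than in Pdgfra+ past an absolute log2 fold change of 1.5 was Stat5b (38.3 against 12.8 CPM, −1.58, adjusted p = 0.000474, edgeR), which encodes a STAT activated by growth hormone and prolactin.

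In DP against Oct4+, 27 of the 46 were called, 11 higher and 16 lower, of which 14 were targets (5 higher, 9 lower), where 56.2% of all genes tested were called. In DP against Pdgfra+, 4 of the 46 were called, 3 higher and 1 lower, where 6.87% of all genes tested were called. The higher genes were Il6ra, the nuclear receptor gene Nr0b1 (48.9 against 3.66 CPM, log2 fold change 3.74, edgeR adjusted p = 0.0238) and Pramel7 (12.8 against 0.710 CPM, 4.13, adjusted p = 0.0495), which supports LIF-dependent self-renewal. Their DP libraries were spread widely, Nr0b1 from 14.5 to 104.7 CPM (SD 48.8) and Pramel7 from 2.99 to 30.6 CPM (SD 15.4), and the log2 fold change was 2.51 for Nr0b1 without DP replicate 2 and 2.43 for Pramel7 without DP replicate 3. The lower gene was Ctf1, which encodes the gp130 ligand cardiotrophin-1 (0.954 against 2.72 CPM, 2.83-fold lower, adjusted p = 0.0385). All 4 calls were lost without any one of the 3 Pdgfra+ libraries, DP replicate 2 or DP replicate 3 (edgeR adjusted p from 0.0523 to 0.178). Those of Ctf1 (without DP replicate 1 or Oct4+ replicate 2), Il6ra (without any one Oct4+ library) and Pramel7 (without Oct4+ replicate 1 or 2) were also lost, at adjusted p from 0.0509 to 0.0745. The paired fit called 10 of 40 listed genes, 5 higher and 5 lower, of which 3 were among the 4, where 20.2% of all genes in that fit were called.

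**Figure D3:**
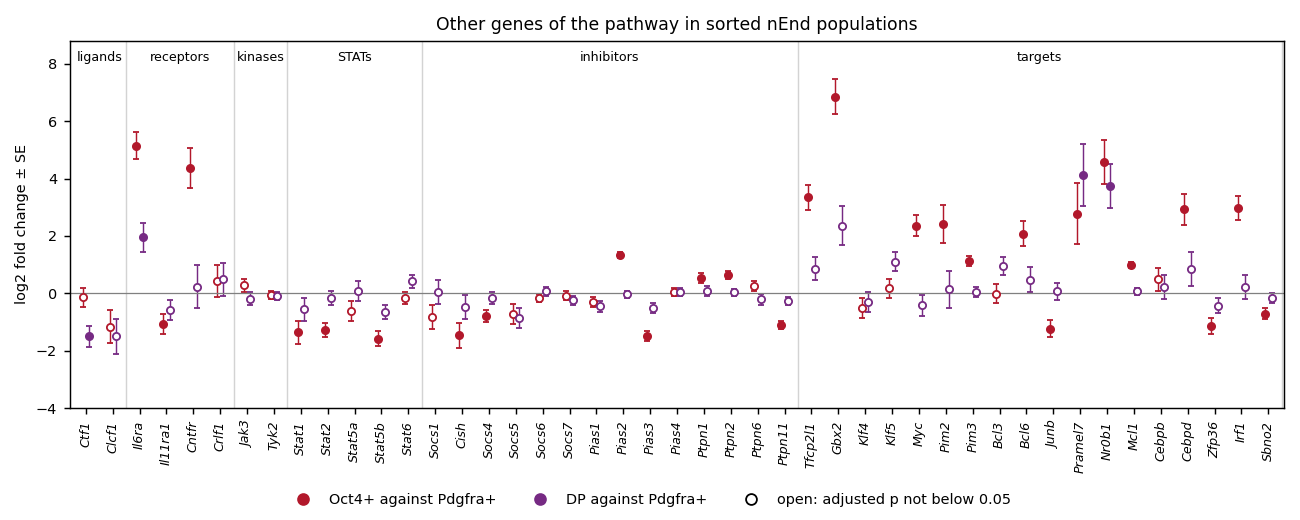
Log2 fold change ± SE (vertical axis) of 45 listed pathway genes (horizontal axis, grouped by role) in Oct4+ against Pdgfra+ and in DP against Pdgfra+. Filled points have an edgeR adjusted p below 0.05. Stat4 is left out because its counts in Pdgfra+ and DP are 0. The highest point in Oct4+ against Pdgfra+ is the target Gbx2 at 6.85, while in DP against Pdgfra+ 4 genes are called.

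Genes that followed a member most closely were ranked by Pearson's r of log2 CPM over the 9 libraries among 9604 genes. These values describe libraries that fall into 3 sorted groups and carry no test. Lif was nearest to Dpy19l4 (0.990) and Arhgap6 (0.989). Lifr was nearest to Tmc6 (0.977) and Atg4c (0.966), Il6st to Eif2ak4 (0.964) and Spg11 (0.955), and Osmr to B3gnt3 (0.993) and Pgap1 (0.990). Jak1 lay nearest to Bbip1 (0.963) and Gga1 (0.957), Jak2 to Pigh (0.985) and Crtc2 (0.984), and Stat3 to Pals1 (0.983) and Letmd1 (0.973). Socs2 was nearest to Utf1 (0.980), an epiblast marker, and to Atad3a (0.973), and Pim1 to Trps1 and Etnk1 (both 0.994). Socs3 had the lowest leading values, with Slc43a1 (0.943) and Dhrs3 (0.941).

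The members were then read in single cells of Oct4LOF nEnd, where no test between conditions was possible with 1 library each, and intervals cover counting error only. Of 14179 barcodes, 11533 cells were kept, 5267 from −4OHT and 6266 from +4OHT, with median depths of 18073 and 12685 unique molecular identifiers (UMIs), and 21 barcode sequences occurred in both libraries. Pou5f1 stood at 40.4 CPM in −4OHT and 2.47 CPM in +4OHT over all cells. The sources used here do not say whether the sequenced 3′ end lies in the deleted part, so that this level may not check the deletion itself. Clusters were built without the members or the listed pathway genes and named from listed markers. The −4OHT library held 1350 endoderm-like (25.6%) and 3706 epiblast-like cells (70.4%), and the +4OHT library held 6034 endoderm-like (96.3%) and 0 epiblast-like cells.

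Within −4OHT, the epiblast-like and endoderm-like cells differed in the levels of Lifr, Stat3, both inhibitors and Pim1. Of the 7 members at 10 CPM or more in either class, 5 were at least 1.5-fold apart, 2 higher and 3 lower in epiblast-like cells, where 48.5% of all such genes were, 19.2% higher and 29.4% lower. Pim1 was at 55.5 CPM in epiblast-like and 9.04 CPM in endoderm-like cells, a ratio of 6.14 (95% interval 5.33 to 7.10), and Socs2 was at 32.9 and 9.17 CPM, a ratio of 3.58 (3.11 to 4.15). Both were therefore higher in the epiblast-like class. Pim1 varied with the treatment of doublets, its ratio being 9.004 without cells called doublets. Lifr was at 23.1 CPM in epiblast-like and 132 CPM in endoderm-like cells, a ratio of 0.175.

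Socs3 stood at 15.5 CPM in epiblast-like and 38.6 CPM in endoderm-like cells (ratio 0.402). Stat3 was at 38.4 and 58.5 CPM (0.657). Jak1 and Il6st lay within 1.5-fold, at ratios of 0.674 and 0.676. Jak2, Osmr and Lif were under 10 CPM in both classes, at 2.93 against 8.77 CPM, 0.214 against 2.77 CPM and 2.44 against 2.15 CPM. The direction was that of bulk Oct4+ against Pdgfra+ for 9 of the 10 members, in another line and another assay. The share of all genes with the same direction in both was not taken. Il6st, Jak1 and Socs3, which are among the 9, were not called in that bulk comparison. The ratio of Lif was 1.13 (0.821 to 1.59), an interval that holds both directions, and it was 0.664 (0.442 to 1.03) when the endoderm-like cluster led by Amn and Cubn was left out.

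**Figure D4:**
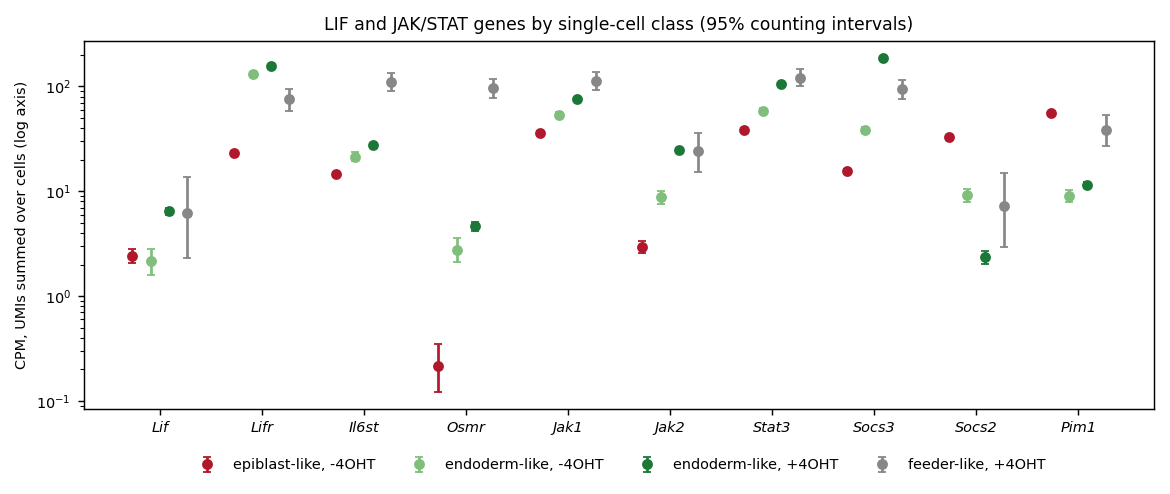
Level of each member in CPM (log axis) in epiblast-like and endoderm-like cells of −4OHT and in endoderm-like and feeder-like cells of +4OHT, with 95% counting intervals. Socs3 stands at 15.5 CPM in epiblast-like cells, 38.6 in endoderm-like −4OHT cells and 186 in endoderm-like +4OHT cells, and Osmr is highest in feeder-like cells at 96.2 CPM.

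The +4OHT and −4OHT libraries were compared within the endoderm-like class. With 1 library each, deletion of Oct4, 4OHT itself and differences between cultures or libraries cannot be told apart. Socs3, Jak2 and Stat3 were higher in +4OHT, so that 3 of the 7 members at 10 CPM or more were at least 1.5-fold higher and 0 lower, where 33.5% of all such genes were past this fold, 23.6% higher and 9.91% lower. Socs3 was at 186 CPM (183 to 189) in +4OHT and 38.6 CPM (36.0 to 41.2) in −4OHT, a ratio of 4.83 (4.51 to 5.17). Jak2 was at 24.6 and 8.77 CPM, a ratio of 2.81 (2.43 to 3.27), and Stat3 at 105 and 58.5 CPM, a ratio of 1.79 (1.69 to 1.90). These 3 encode an inhibitor, a kinase and the transcription factor of the list, and the other 4 members at 10 CPM or more lay within 1.5-fold.

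The receptor chains moved less, Lifr being at 156 CPM in +4OHT and 132 CPM in −4OHT (ratio 1.18) and Il6st at 28.0 and 21.5 CPM (1.30). Jak1 was at 75.4 and 53.8 CPM (1.40). Pim1 was at 11.6 and 9.04 CPM (1.28). Its ratio was 1.87 without cells called doublets, which lay in −4OHT only. Doublet calling is taken not to have worked in +4OHT. Socs2 was under 10 CPM in both, at 2.35 CPM in +4OHT and 9.17 CPM in −4OHT (ratio 0.256, 0.210 to 0.313), as was Lif, at 6.43 and 2.15 CPM (ratio 3.00, 2.23 to 4.11). The summed feeder markers were 48.3 CPM in +4OHT and 23.1 CPM in −4OHT endoderm-like cells. The 12 Epi markers summed to 672 CPM in +4OHT and 2617 CPM in −4OHT endoderm-like cells, of which 0 and 57 cells were called doublets. The part of either list or of doublets in these values was not tested.

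Different clusters made up the endoderm-like class in the 2 libraries. In −4OHT, 763 of its 1350 cells fell in a cluster led by Amn and Cubn, which encode an endocytic receptor complex of visceral endoderm, against 17 of 6034 cells in +4OHT. The other endoderm-like clusters were led by Car4 and Pitx1 (306 cells in −4OHT and 2291 in +4OHT), S100g and Pga5 (219 and 2323) and Clu and Tff1 (62 and 1403). None of the class markers was among the top 10 genes of these 3 clusters. They were named because their mean log2 level of the endoderm markers was above that of the Epi markers. These levels were 8.41 against 4.10 in Car4/Pitx1, 8.49 against 4.10 in S100g/Pga5 and 8.28 against 4.04 in Clu/Tff1. Of the 15 endoderm markers, 12 to 14 were detected in each.

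Inside −4OHT, the Amn/Cubn cluster differed from the other endoderm-like cells in the same members. Socs3 was at 17.5 CPM there and 81.4 CPM in the other 587 cells (ratio 0.216), Jak2 at 4.74 and 17.0 CPM (0.279) and Stat3 at 48.9 and 78.0 CPM (0.627). Socs2 was at 12.2 and 2.99 CPM (ratio 4.08, 2.62 to 6.68). Pou5f1 was at 21.1 and 2.99 CPM (7.05). Lifr, Il6st, Jak1 and Pim1 lay within 1.5-fold (1.24, 0.973, 0.975 and 1.25). In this split 35.3% of all genes at 10 CPM or more were at least 1.5-fold apart. The Epi markers summed to 3545 CPM in the Amn/Cubn cluster and 727 CPM in the other endoderm-like cells, and all 57 cells of the class called doublets lay in this cluster. Without these 57 cells the Epi sum was 3365 CPM, and the ratios were 0.218 for Socs3, 0.267 for Jak2, 0.622 for Stat3, 3.61 for Socs2 and 6.52 for Pou5f1, while that of Pim1 turned to 0.686.

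With the Amn/Cubn cluster left out, a comparison chosen after seeing the data, Socs3 alone of the members at 10 CPM or more was past 1.5-fold between +4OHT and −4OHT, where 10.4% of all such genes were. It stood at 186 CPM in 6017 cells of +4OHT and 81.4 CPM in 587 cells of −4OHT (ratio 2.29, 2.11 to 2.49). Stat3, Jak2 and Pim1 were at ratios of 1.34, 1.45 and 1.49, and Socs2 at 0.788.

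Socs3 was higher in +4OHT within each cluster. In the Car4/Pitx1 cluster it was at 147 CPM in +4OHT and 67.5 CPM in −4OHT (ratio 2.18, 1.94 to 2.45). In the S100g/Pga5 cluster it was at 216 and 92.6 CPM (2.34, 2.04 to 2.69). In the Clu/Tff1 cluster it was at 237 and 135 CPM (1.75, 1.42 to 2.19). The Amn/Cubn cluster, with 17 cells in +4OHT, gave 116 and 17.5 CPM (6.62, 3.65 to 11.1). Jak2 in the first 3 of these clusters was at 20.5 against 14.6, 22.9 against 18.2 and 37.2 against 29.2 CPM, all under 1.5-fold. Osmr was highest among these clusters in Clu/Tff1, at 9.97 CPM in +4OHT and 15.4 CPM in −4OHT.

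**Figure D5:**
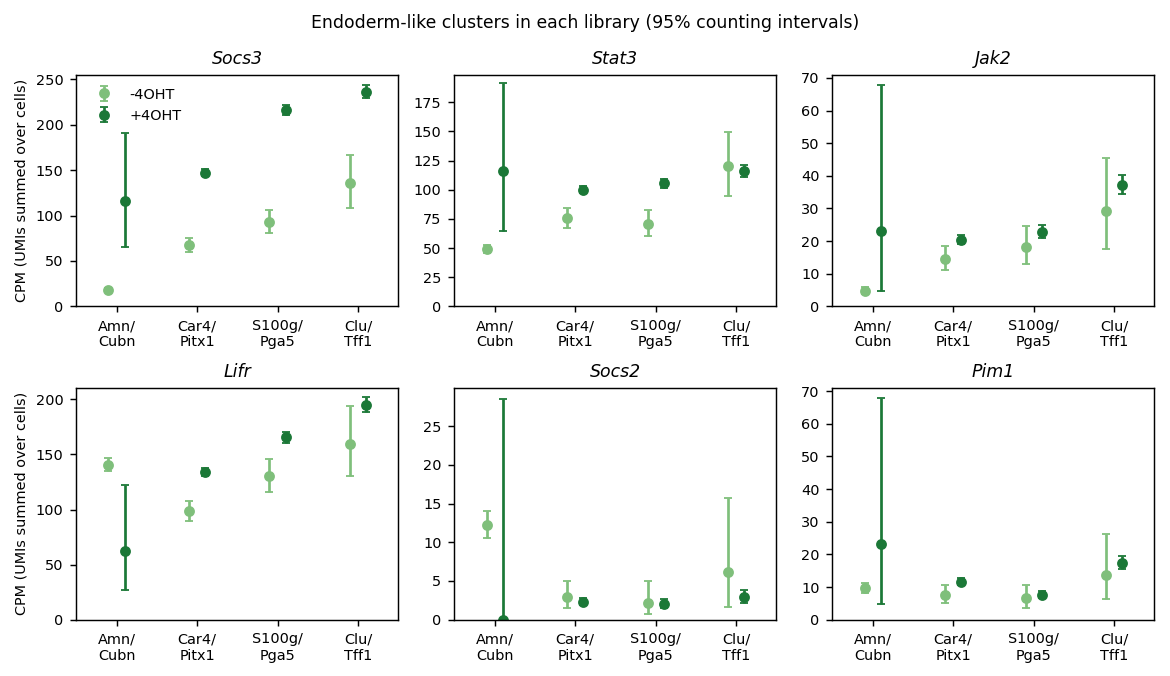
Level in CPM with 95% counting intervals of Socs3, Stat3, Jak2, Lifr, Socs2 and Pim1 in the 4 endoderm-like clusters (horizontal axis, by leading genes) for −4OHT and +4OHT. Socs3 is higher in +4OHT in each cluster, at 147 against 67.5 CPM in Car4/Pitx1, 216 against 92.6 in S100g/Pga5, 237 against 135 in Clu/Tff1 and 116 against 17.5 in Amn/Cubn, the last with 17 cells in +4OHT.

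As a reading of single cells by the gene of the bulk reporter, the endoderm-like cells of −4OHT were split by whether they held a Pou5f1 UMI, which 250 cells did and 1100 did not (5652362 and 16699473 UMIs in all, with 57 of the 1350 cells called doublets, all in the Amn/Cubn cluster). Of the 7 members at 10 CPM or more, 3 were at least 1.5-fold apart, where 11.8% of all such genes were, 3.70% higher and 8.08% lower. Socs3 was at 17.3 CPM with and 45.8 CPM without a Pou5f1 UMI (ratio 0.379). Socs2 was at 14.2 and 7.49 CPM (1.89, 1.41 to 2.52). Pim1 was at 14.2 and 7.31 CPM (1.94), and at a ratio of 1.20 without cells called doublets. Lifr and Stat3 were at ratios of 1.03 and 0.915.

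Of the 250 cells, 229 lay in the Amn/Cubn cluster (229 of its 763 cells), against 16 of 306, 2 of 219 and 3 of 62 cells in the clusters led by Car4 and Pitx1, S100g and Pga5, and Clu and Tff1. Free RNA can give a droplet such a UMI, and 70.4% of the cells of this library were epiblast-like. In its feeder-like cells 3 of 19 held a Pou5f1 UMI (15.8%, exact 95% interval 3.38% to 39.6%) at a median depth of 26682 UMIs. The share was 30.0% in the Amn/Cubn cluster (26.8% to 33.4%) at 18165 UMIs. It was 3.58% in the other endoderm-like cells (2.23% to 5.42%) at 11880 UMIs. The interval of the 19 feeder-like cells overlaps that of both endoderm-like groups, and the depths differ. The intervals of the endoderm-like groups do not overlap each other, and Pou5f1 was at 21.1 CPM in the Amn/Cubn cluster and 2.99 CPM in the other endoderm-like cells. The part of free RNA in these UMIs was not tested. The split is therefore one by a detected UMI and not by expression of Oct4. Within the Amn/Cubn cluster, Pim1 alone was past 1.5-fold (14.6 against 6.998 CPM, 2.09, 1.49 to 2.94), where 3.59% of all genes at 10 CPM or more were. Lif and Osmr were also past this fold, under 10 CPM, at ratios of 0.434 (0.106 to 1.33) and 0.425 (0.143 to 1.06). These rest on 4 and 6 UMIs in the cells with a Pou5f1 UMI, and both intervals hold both directions. Without the doublets, all of which lay here, Pim1 was at 7.03 against 4.55 CPM (ratio 1.54, 0.919 to 2.56). Socs3 was at a ratio of 0.777 (0.588 to 1.02) and Socs2 at 1.31 within this cluster.

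Over all cells, regardless of class, 8 of the 8 members at 10 CPM or more were at least 1.5-fold apart between +4OHT and −4OHT, 6 higher and 2 lower, where 56.6% of all such genes were, 37.2% higher and 19.4% lower. The ratios were 8.58 for Socs3, 5.58 for Jak2, 3.17 for Lifr, 2.41 for Stat3, 1.89 for Jak1 and 1.77 for Il6st, and 0.103 for Socs2 and 0.409 for Pim1. The 2 libraries hold different classes, so that a change in class shares and a change within cells cannot be told apart in these values.

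Of the 53 listed genes, 28 were at 10 CPM or more in endoderm-like cells, and 11 were at least 1.5-fold higher and 5 lower in +4OHT, where 23.6% of all genes at 10 CPM or more were higher and 9.91% lower. The pluripotency factor Klf4, a STAT3 target, was at 442 CPM in +4OHT and 172 CPM in −4OHT (ratio 2.56), and the immediate early gene Junb at 59.7 and 36.0 CPM. The target Tfcp2l1, a transcription factor of naive pluripotency, was at 7.87 and 32.3 CPM (0.244), and Nr0b1 at 0.866 and 15.4 CPM (0.0564). The inhibitor Socs1 was at 10.5 and 25.4 CPM (0.412). These 5 were named after their values were seen.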

How the data were processed

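Bulk libraries were made with a directional kit and single-end reads. The authors deposited these as raw counts by gene symbol. Not given in the sources used here were the counting tool, its genome build and whether it used strand. The 35 blank lines of that table held no value and were left out. The single-cell files deposited by the authors hold UMI counts from Cell Ranger with a mouse mm10 reference. Cells had been gated as DAPI-negative.

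Bulk counts were tested in R 4.3.3 with edgeR 4.0.16 (TMM, filterByExpr, glmQLFit and glmQLFTest, group as the only term, all 9 libraries), with Benjamini-Hochberg adjustment over 14185 genes and a threshold of 0.05. CPM used TMM-scaled library sizes, and mean ± SD were taken over 3 libraries. Exon lengths were from the GENCODE M21 annotation. Alternatives used DESeq2 1.42.0, other size factors, other filters, leaving out each library, and a replicate block. Chi-square tests of counts between libraries of a group gave 16.7 to 36.6 per degree of freedom. Replicate numbers come from the labels. Deviations of same-numbered libraries correlated at 0.271, 0.477 and 0.321 between DP and Pdgfra+, so that these were taken as paired. Between Pdgfra+ and Oct4+ they correlated at 0.0383, −0.00412 and −0.0465, and between DP and Oct4+ at 0.0222, −0.0728 and 0.152, so that these were not.

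Cells with at least 1500 genes and at most 10% mitochondrial UMIs were clustered with scikit-learn 1.9.0 and leidenalg 0.10.2. Settings were 2000 variable genes, 20 principal components, 20 neighbours and Leiden at resolution 0.5. Variable genes were those with the largest variance relative to genes of like mean. Classes were summed per library, with exact Poisson and conditional binomial 95% intervals that cover counting error only. Scrublet marked 168 cells (3.19%) in −4OHT and 0 in +4OHT, where it is taken not to have worked, and doublets were kept in the main values. Scripts were tested on simulated data.

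The members and lists were chosen with earlier results of these data known. Named genes were all members, up to 3 listed pathway genes per direction and bulk comparison with the largest change past an adjusted p of 0.05 and an absolute log2 fold change of 1.5, the 2 genes most correlated with each member among genes of at least 10 CPM on average, and check and marker genes.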

Additional observations from a re-analysis of the deposited data

How the results depend on the processing

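In DP against Pdgfra+, the count of members called moved from 1 to 2 with DESeq2, to 3 without a filter on low counts, to 3 with the replicate block over 9 libraries and to 6 with the block in the 6 libraries compared, and lay between 0 and 2 when each library was left out. For the listed pathway genes it moved from 4 to 8 with DESeq2, 7 without a filter, 2 with at least 10 CPM in at least 3 libraries and 10 with the block in 6 libraries, and lay between 0 and 5 when each library was left out. Of all genes, 6.87% were called in the main fit and 20.2% with the block in 6 libraries. The share over all genes was not taken for the other settings. Jak1 there changed sign to −0.02 without Pdgfra+ replicate 2 and −0.05 without DP replicate 3, and Osmr to −0.14 without Pdgfra+ replicate 3 and −0.19 without DP replicate 1. When each library was left out, the log2 fold changes ran from −0.05 to 0.17 for Jak1 and from −0.19 to 0.82 for Osmr. The causes were not tested. Over all settings the members called numbered 5 to 8 in DP against Oct4+ and 6 to 8 in Oct4+ against Pdgfra+. The main fit called 56.2% and 63.2% of all genes in these comparisons. Among these, Il6st in DP against Oct4+ was lost with DESeq2 (adjusted p = 0.0659), with its size factors in edgeR (0.0695), with the stricter filter (0.083) and in the 6 libraries compared (0.0677). The numbers do not pair Oct4+ with the other groups. The block over 9 libraries called Jak1 in DP against Oct4+ (0.39, adjusted p = 0.0166) and in Oct4+ against Pdgfra+ (−0.33, adjusted p = 0.0268) and changed no other call of a member in these 2 comparisons. The single-cell alternatives that follow were chosen after seeing the data. Leaving out the Amn/Cubn cluster moved the members past 1.5-fold from 3 to 1 in +4OHT against −4OHT endoderm-like cells. The share of all genes at 10 CPM or more moved from 33.5% to 10.4%. In epiblast-like against endoderm-like cells the members moved from 5 to 8 and the share from 48.5% to 56.4%. Staying within that cluster moved the members from 3 to 1 in the split by Pou5f1 and the share from 11.8% to 3.59%. Without cells called doublets there, 0 members and 2.32% of all such genes were past this fold. In that split Jak2 turned to a ratio of 1.07 (0.63 to 1.76) within the cluster. Lif turned to 1.48 (0.17 to 5.9) outside it, on 2 UMIs in the 21 cells with a Pou5f1 UMI. Both intervals hold both directions. The depth of 62 and 17 cells in the smallest cluster and library combinations limits the ratios within clusters.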

Other observations

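Some classes of few cells had members at other levels than the endoderm-like and epiblast-like classes. In the feeder-like cluster (19 cells in −4OHT and 31 in +4OHT), Osmr stood at 22.9 and 96.2 CPM, Il6st at 34.3 and 110 CPM and Lif at 20.9 and 6.28 CPM. This cluster summed to 4586 and 11400 CPM over the feeder markers.

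Pim1 was at 144 CPM in an unnamed cluster of 228 cells led by Mt2 and Cidea, 196 of them from +4OHT and 32 from −4OHT. The largest epiblast-like cluster, all from −4OHT, had Pim1 at 60.6 CPM. Over all unnamed cells, Pim1 was at 157 CPM in +4OHT (197 cells) and 34.6 CPM in −4OHT (97 cells). In the 2-cell-like cluster (99 cells, 4 of them from +4OHT) Pim1 was at 78.5 CPM and Socs3 at 40.5 CPM over both libraries. In its 95 cells of −4OHT alone they were at 60.4 and 26.1 CPM. A further unnamed cluster of 66 cells, 86.4% of them called doublets, had Pim1 at 36.9 CPM.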
